A study of Sus scrofa with 6 samples.

Results

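Chemokines are small secreted proteins that attract cells carrying matching G protein-coupled receptors. CC chemokines have adjacent leading cysteines and CXC chemokines have 1 residue between them. In fat they come from resident macrophages, lymphocytes, vessel walls, stroma and fat cells, and CCL2 is best known there for drawing monocytes into the tissue of obese mice. The roles given below for single ligands and receptors are those known from human and mouse.

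The chemokines described here are 10 of the 24123 probe sets on an Affymetrix Porcine array, chosen as all probe sets annotated with exactly 1 symbol among CCL2, CCL4, CCL5, CCL19, CCL21, CXCL2, CXCL10, CXCL12 and CXCL14. Of these 9 symbols 8 were represented, CXCL12 and CXCL14 by 2 probe sets each, while CXCL10 was not analysed here. They stand among 6765 genes with a symbol of their own on the array. The genes were chosen by their measured differences between barrows and boars, in particular the opposite moves of CCL4 against CXCL2 and CCL19. The group values of all 10 probe sets are therefore a description. Where the text says which of them passed the threshold of the fit over the whole array, that describes the same values and supports nothing.

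The tissue was the middle layer of backfat at rib 6, taken at 175 days of age from male Pietrain and Landrace hybrids. Barrows had both testes removed by surgery at 7 days of age. Boars were their intact full brothers. All pigs of both groups were weaned at 30 days and fed without restriction. The 15 brother pairs gave 3 barrow and 3 boar arrays, each of a pool of RNA from 5 animals, so a replicate is a pool and the spread between single pigs is not seen.

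Signals are MAS5 intensities on a linear scale, and differences are barrow minus boar on the log2(signal + 16) scale. Array medians ran from 162 to 173, and log2 signals of arrays correlated at 0.978 to 0.988 within a group and at 0.975 to 0.983 between groups, across probe sets. The adipocyte markers fixed for this tissue summed to 52200 to 58300 in barrow pools and 55700 to 58800 in boar pools. Of that list the hormone leptin, LEP, rose by 0.58 in 1 probe set (limma adjusted p = 0.021) and had 0.45 in the other (limma adjusted p = 0.24), and the call was lost without barrow pool 1, boar pool 1 or boar pool 3 and without the intensity trend (limma adjusted p up to 0.14). Those of skeletal muscle summed to 106 to 138 in barrow pools and 129 to 137 in boar pools, and none of them reached the level needed for testing. Of the 14399 probe sets tested across the array 1.16% passed the threshold of an adjusted p under 0.05 (limma, Benjamini-Hochberg), 0.701% higher and 0.458% lower in barrows. In bulk tissue, fewer cells of a type and less RNA per cell cannot be told apart.

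All 10 chemokine probe sets reached the level for testing, and none did so through 1 group alone, since both group means of each lay above the lowest tested mean. In that fit 3 of the 10 were past the threshold, CCL4 higher and CXCL2 and CCL19 lower, the pattern for which they were chosen. The count was also 3 with the replicate number as a block, where 2.35% of the array passed. The groups did not overlap in 5 of the 10, against 18.1% of all tested probe sets. The barrow mean was below the boar mean in 8 of 10, against 53.4% over the array. The median difference of the 10 was -0.35, beside a median of -0.01 for all tested probe sets.

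**Figure D1:**
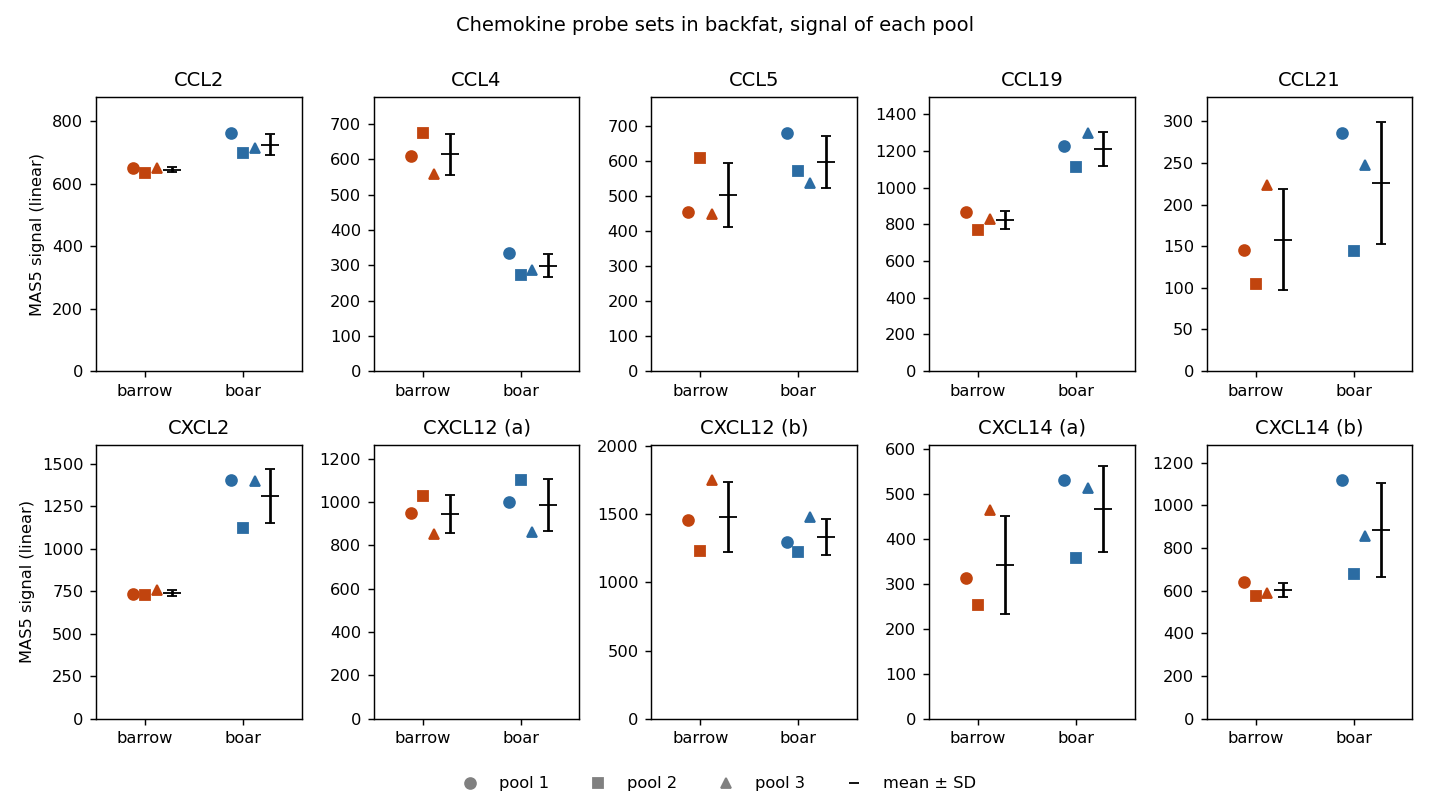
MAS5 signal (linear axis from 0) of the 10 chemokine probe sets in barrow pools (left in each panel) and boar pools (right), 1 point per pool, with the mean and SD of the 3 pools as a bar. The letters a and b mark different probe sets of 1 gene, in the order of their identifiers. CCL4 lies at 559 to 675 in barrows above 273 to 335 in boars, and CXCL2 and CCL19 lie in the opposite order, whereas the pools of CCL5, CCL21 and CXCL12 overlap.

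Among the ligands of inflammation, CCL4 was the one with a clearly higher barrow signal. CCL4, a chemokine made by activated macrophages, T cells and NK cells, had signals of 609.8, 675 and 559 in barrow pools 1 to 3, against 335, 273 and 287 in boar pools 1 to 3. The lowest barrow pool stood well above the highest boar pool. Means were 615 ± 58.1 in barrows and 299 ± 32.7 in boars (SD, n = 3 each), a difference of 1.0 or 2.01-fold. Between pools of the same number the fold was 1.78, 2.39 and 1.90.

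CCL5, an attractant of T cells, did not follow CCL4. Its signals were 454, 609 and 448 in barrow pools, against 680.3, 572 and 539 in boar pools. One barrow pool, number 2, stood above 2 of the boar pools, and the groups overlapped. Means were 504 ± 91.0 in barrows and 597 ± 74.1 in boars (SD, n = 3 each), a difference of -0.25. Pool number 2 differed by 0.09 and the pools numbered 1 and 3 by -0.57 and -0.26.

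CCL2, the main ligand of CCR2 and an attractant of monocytes, gave the least spread of the 10. It had 651, 634 and 649 in barrow pools, against 762, 698 and 714 in boar pools. The groups did not overlap, yet the difference was small, -0.16, between means of 645 ± 9.11 in barrows and 725 ± 33.2 in boars (SD, n = 3 each). Its within-group SD on the log2 scale was 0.05, at percentile 3.13 of all tested probe sets, where the median was 0.15.

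CXCL2, a neutrophil attractant that acts through CXCR2, had the most negative difference of the 10. Signals were 735, 725 and 757 in barrow pools, against 1402, 1124 and 1399 in boar pools. The barrow pools lay close together and all below the lowest boar pool. Means were 739 ± 16.4 in barrows and 1308 ± 160.0 in boars (SD, n = 3 each), a difference of -0.80, so that boars had 1.75-fold the barrow level. The difference was -0.92, -0.62 and -0.87 between pools numbered 1, 2 and 3.

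The ligands of lymphoid tissue, CCL19 and CCL21, both bind CCR7 and guide dendritic cells and naive T cells. They lie next to each other in the pig RefSeq annotation, with 0 protein-coding genes between them. CCL19 had 870.2, 770.2 and 827 in barrow pools, against 1226, 1115 and 1299 in boar pools. The groups were apart, with means of 823 ± 50.2 in barrows and 1213 ± 92.6 in boars (SD, n = 3 each). The difference was -0.55, and between pools of 1 number it was -0.49, -0.53 and -0.64.

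CCL21, which lymphatic endothelium and lymph node stroma secrete, had a like difference of group means and a far wider spread. Its signals were 146, 105 and 223 in barrow pools, against 286, 145 and 247 in boar pools. Barrow pools 1 and 3 stood above boar pool 2, so the groups overlapped. Means were 158 ± 60.3 in barrows and 226 ± 73.0 in boars (SD, n = 3 each), a difference of -0.48. The within-group SD was 0.49 on the log2 scale, at percentile 98.5 of all tested probe sets.

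The stromal ligand CXCL12, which holds cells that carry CXCR4 and is also bound by the scavenging receptor ACKR3, gave no common direction. Its probe sets, called a and b in the order of their identifiers, are given apart. Probe set a had 952, 1030.1 and 852 in barrow pools, against 999, 1101 and 863 in boar pools. The difference was -0.06, with means of 945 ± 89.3 in barrows and 987 ± 119 in boars (SD, n = 3 each). Here the pools overlapped almost fully.

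Probe set b had 1461, 1232 and 1749.6 in barrow pools, against 1297, 1225 and 1482 in boar pools. This difference was 0.14, with means of 1481 ± 259.6 in barrows and 1335 ± 132 in boars (SD, n = 3 each). The probe sets also ordered the pools differently: within each group pool 3 was lowest in probe set a and highest in probe set b. Which of them follows the CXCL12 transcript more closely was not tested.

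CXCL14, a ligand of epithelia and stroma whose receptor is not settled, was lower on average in barrows in both probe sets. Probe set a had 312, 252 and 463 in barrow pools, against 529.8, 357 and 514 in boar pools. These groups overlapped, since barrow pool 3 stood above boar pool 2. Means were 342 ± 109 in barrows and 467 ± 95.7 in boars (SD, n = 3 each), a difference of -0.45.

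Probe set b had 642, 577 and 589 in barrow pools, against 1118, 679 and 858 in boar pools. The groups did not overlap, although boar pool 2 lay near the barrow pools. Means were 603 ± 34.7 in barrows and 885 ± 221 in boars (SD, n = 3 each), a difference of -0.51. Without boar pool 2 the difference was -0.69, and this probe set then passed the threshold of the fit over the array.

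**Figure D2:**
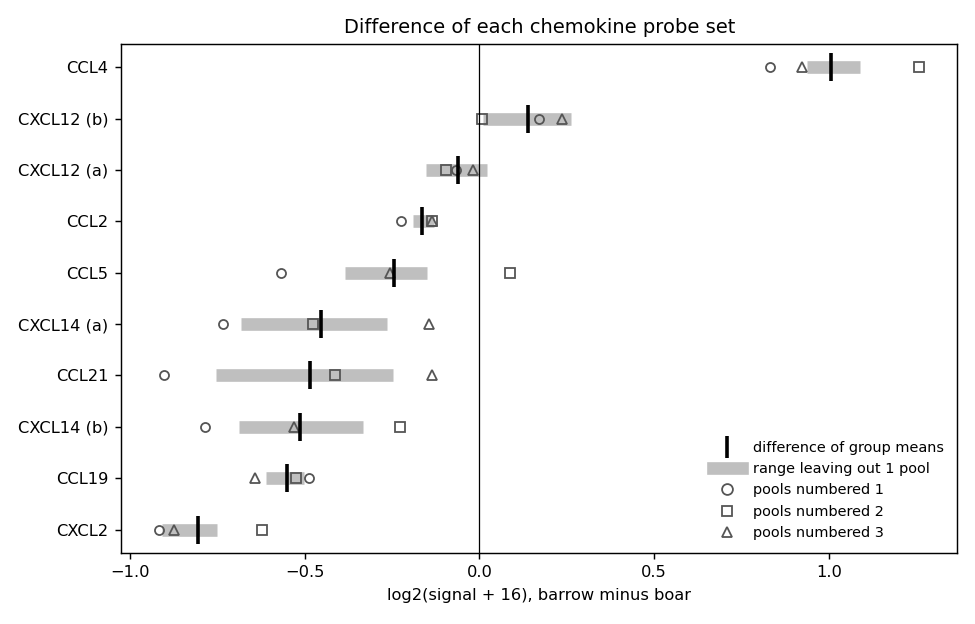
Difference of log2(signal + 16), barrow minus boar, for each of the 10 chemokine probe sets. The black bar is the difference of group means, open symbols are the differences between pools of the same number, and the grey band is the range of the group difference when 1 of the 6 pools is left out. CCL4 lies at 1.0 on the far right, CXCL2 at -0.80 on the far left, and CXCL12 on both sides of 0.

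Between pools of the same number, 7 of the 10 probe sets were lower in barrows in all 3 comparisons and 2 were higher in all 3, CCL4 and CXCL12 (b). Some differences were near 0, at -0.02 in CXCL12 (a) between pools numbered 3 and 0.008 in CXCL12 (b) between pools numbered 2. The share of such probe sets over the array was not computed, and the 10 were chosen by this contrast. Leaving out 1 pool at a time moved the CCL4 difference between 0.94 and 1.09, that of CXCL2 between -0.91 and -0.75 and that of CCL19 between -0.61 and -0.50. These bands were narrow beside those of CCL21, -0.75 to -0.25, and of CXCL14 (a), -0.68 to -0.26. CXCL12 (a) ran across 0, with -0.15 to 0.02. The count of 3 past the threshold depended on single pools. Without boar pool 1 or without boar pool 3 CCL4 alone was past it, without barrow pool 1 or barrow pool 3 CCL19 was not, and without an intensity trend CCL4 alone remained.

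The pools numbered 2 tended to be low. In 7 of the 10 probe sets pool 2 was the lowest of its group both in barrows and in boars, against 17.5% of all tested probe sets. This count was made after the values had been seen, and the probe sets share the same 6 arrays. Relative to the mean of its own group, CCL21 was at -0.47 in barrow pool 2 and -0.54 in boar pool 2, and CXCL14 (a) at -0.38 and -0.35. CCL4 and CCL5 were instead highest of the barrows in pool 2, at 0.14 and 0.28. CXCL12 (a) was highest in pool 2 of both groups, at 0.13 in barrows and 0.16 in boars.

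**Figure D3:**
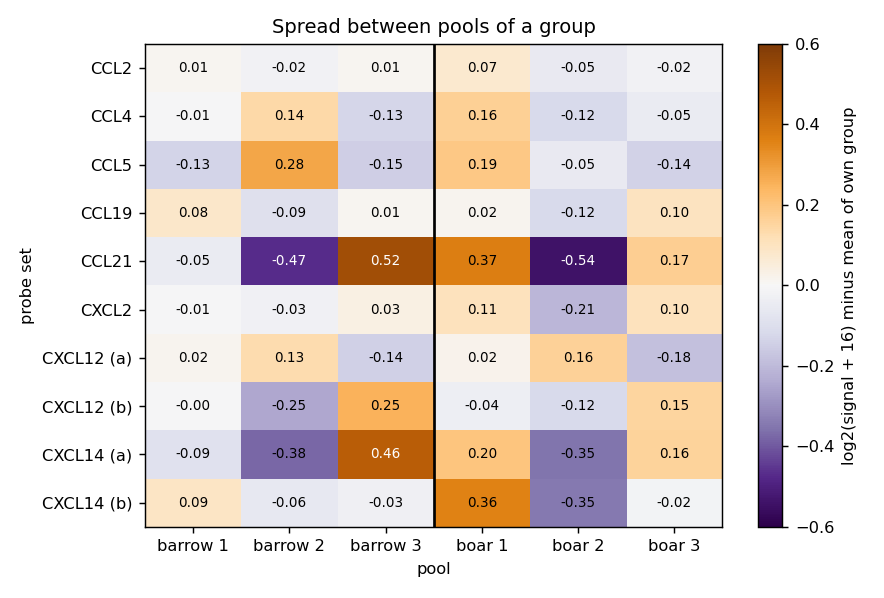
Deviation of each pool from the mean of its own group, in log2(signal + 16), for the 10 chemokine probe sets (rows) in 3 barrow and 3 boar pools (columns, split by the line). Purple cells lie below and orange cells above the group mean. CCL21 and CXCL14 (a) are low in both pools numbered 2, at -0.54 to -0.35, and CCL2 hardly varies.

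Marker sums of some cell types moved with part of this spread. The 7 T and NK cell markers with a probe set summed to 759, 820.2 and 782 in barrow pools, against 1492, 619.8 and 1143 in boar pools. Much of the boar spread was 1 gene, the cytotoxic granule protein GNLY, and without it the sums were 462, 526 and 497 in barrow pools, against 681, 443 and 633 in boar pools. None of the genes with a probe set was at 0. Of the 4 tested probe sets 0 passed the threshold, against 1.16% over the array. The 2 B and plasma cell markers, mainly the immunoglobulin joining chain JCHAIN, summed to 498, 232 and 461 in barrow pools, against 587, 369 and 686 in boar pools. Boar pool 2 was thus the lowest boar pool for both lists, and barrow pool 2 the lowest barrow pool for the B cell list, as for CCL21 and CXCL14. For the T and NK cell list barrow pool 2 was instead the highest barrow pool, with and without GNLY. Stromal and fibroblast markers summed to 26924, 19680 and 27853 in barrow pools, against 23202, 22374 and 25301 in boar pools. That list too was lowest in pool 2 of both groups. The part of these cell types in the chemokine values was not tested.

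Macrophage markers summed to 3370 to 3640 over 4 genes in barrow pools and 2940 to 3570 in boar pools. Of their 5 tested probe sets 0 passed, against 1.16% over the array. MRC1, the mannose receptor of tissue macrophages, had a difference of -0.02 (limma adjusted p = 0.97). The haemoglobin scavenger receptor CD163 had -0.70 in 1 probe set (limma adjusted p = 0.094) and 0.15 in the other (limma adjusted p = 0.69). Neutrophil markers summed to 294 to 360 in barrow pools and 248 to 305 in boar pools. Of the dendritic cell list CD209, a lectin of dendritic cells and macrophages, fell by 0.86 (limma adjusted p = 0.018). Endothelial markers summed to 12100 to 12200 in barrow pools and 12900 to 13700 in boar pools. All 8 tested probe sets of that list, from 5 genes, were below 0, against 53.4% over the array. Their median was -0.17, with VWF at -0.05 and CDH5 at -0.0009 and -0.04. The angiopoietin receptor TEK fell by 0.47 in 1 probe set (limma adjusted p = 0.047). Its other tested probe set had -0.20 (limma adjusted p = 0.73), and an untested dim one had 0.30. The calls of CD209 and TEK were lost without barrow pool 1, barrow pool 3, boar pool 1 or boar pool 3 and without the intensity trend (limma adjusted p up to 0.12 for CD209 and 0.25 for TEK). Of the 13 alternatives CD209 passed in 8 and this TEK probe set in 7. CD83, the other tested gene of the dendritic cell list and a marker of mature dendritic cells, had 0.24 (limma adjusted p = 0.77), and its untested dimmer probe set had 0.82, with groups that did not overlap. LYVE1 of lymphatic vessels had -0.33 and -0.40 in its tested probe sets (limma adjusted p = 0.43 and 0.26) and 0.28 in an untested dim one. PDPN, the other tested gene of the lymphatic list, had 0.08 (limma adjusted p = 0.81). That list summed to 1180 to 1280 in barrow pools and 1170 to 1400 in boar pools.

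**Figure D4:**
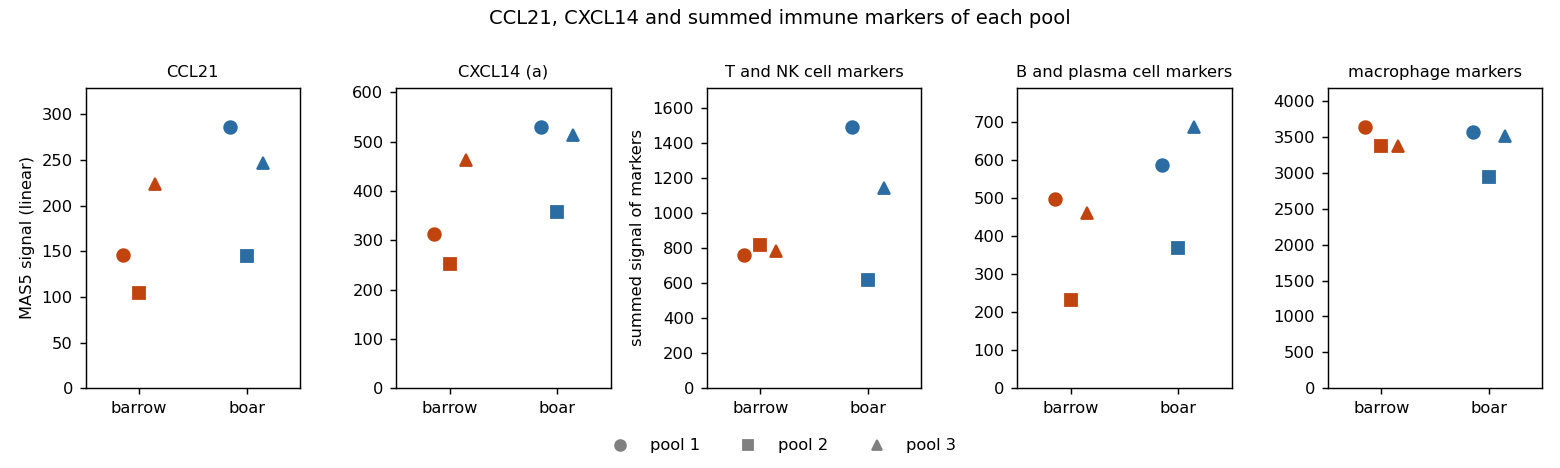
Signal of CCL21 and of CXCL14 (a) beside the summed signal of T and NK cell, B and plasma cell and macrophage markers, with 1 point per pool, barrows left and boars right, on linear axes from 0. Boar pool 2 is the lowest boar pool in all 5 panels, and barrow pool 2 is the lowest barrow pool in those of CCL21, CXCL14, B and plasma cell and macrophage markers.

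The rest of the chemokine system gave no call. Of 101 symbols listed as other ligands, receptors, signalling proteins, inducers and ligand-processing enzymes, 49 had a probe set, and 36 probe sets of 31 genes were tested. In either direction 0 of 36 passed the threshold (limma), 0 with the replicate block as well, and 4 had an unadjusted p under 0.05. Over the array 12.2% had such a p, 1.16% passed the threshold and 2.35% passed with the block. A count of 0 of 36 therefore does not set this part of the system apart from the array. The median difference of the 36 was -0.06, with 15 above 0 and 21 below.

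Receptors for the ligands above could be followed in part. CXCR4, the receptor of CXCL12 on leukocytes and progenitors, had 433, 403 and 419.5 in barrow pools, against 505, 503 and 541 in boar pools. The groups did not overlap, with a difference of -0.29 (95% CI -0.52 to -0.07, limma adjusted p = 0.27). CCR1, a receptor of CCL5, had 0.16 (95% CI -0.43 to 0.75, limma adjusted p = 0.88). XCR1, the XCL1 receptor of cross-presenting dendritic cells, had -0.49 (limma adjusted p = 0.47). CCR2 and CCR7 lay below the level for testing, CCR2 at 82.5 ± 10.1 in barrows and 64.3 ± 34.7 in boars, and CCR7 at 13.6 ± 1.30 in barrows and 27.2 ± 19.4 in boars (SD, n = 3 each). CXCR2, CXCR3 and ACKR3 were not analysed here.

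Other ligands also stayed short of the threshold. CCL24, an eosinophil attractant, had -0.46 (95% CI -1.0 to 0.09, limma adjusted p = 0.51), and passed at -0.82 without boar pool 2 (limma adjusted p = 0.015, and 0.015 to 0.85 over all alternatives). CXCL9, an interferon-induced attractant of T cells, had -0.32 (limma adjusted p = 0.61), the B cell attractant CXCL13 had 0.26 (limma adjusted p = 0.66), and CXCL16, a membrane-bound ligand of CXCR6, had -0.13 (limma adjusted p = 0.74). CCL14 had 0.01 (limma adjusted p = 0.99). AMCF-II, a pig alveolar macrophage chemotactic factor, had 0.03 in its tested probe set (95% CI -0.12 to 0.17, limma adjusted p = 0.92). The mean signal of that probe set was 4613 in barrows and 4530 in boars. Its untested dim probe sets had -0.49 and -0.57, at means of 2.99 and 9.82 in barrows and 11.5 and 22.4 in boars. Which of them follows the AMCF-II transcript was not tested.

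Neighbours of the chemokines in the genome were set beside them. CCL3L1, which follows CCL4 in the RefSeq order with 0 protein-coding genes between, lay below the level for testing. It had 136, 63.1 and 17.1 in barrow pools, against 52.4, 79.5 and 42.9 in boar pools, so the groups overlapped. CCL8, separated from CCL2 by 1 gene, was also dim, at 81.7 ± 15.4 in barrows and 65.3 ± 40.9 in boars (SD, n = 3 each). CXCL8, in the cluster of CXCL2, had 11.6, 14.7 and 0.55 in barrow pools, against 26.0, 32.8 and 28.2 in boar pools. These CXCL8 signals did not overlap between groups, were not tested, and are not shown to exceed background.

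Signalling proteins downstream of the receptors were below 0 in 6 of 7 tested probe sets, against 53.4% over the array. These 6 ran from -0.004 to -0.42, and 0 of the 7 passed the threshold. The beta-arrestin ARRB2, which ends receptor signalling, had -0.35 (95% CI -0.59 to -0.10, limma adjusted p = 0.21), and the leukocyte GTPase RAC2 had -0.42 (limma adjusted p = 0.31). RGS1, an inhibitor of G protein signalling in lymphocytes, had -0.39 (limma adjusted p = 0.52). Among inducers IRF7, a transcription factor of the interferon response, had 0.77 (95% CI 0.41 to 1.13, limma adjusted p = 0.055, or 0.054 once the replicate number was a block, and 0.050 to 0.25 over all alternatives), with 222, 215 and 191 in barrow pools, against 104, 134 and 112 in boar pools. The cytokines IL1B and IL1A had 0.29 and 0.31 (limma adjusted p = 0.57 and 0.64). Of the enzymes that trim or release chemokines, DPP4 had -0.30, MMP2 -0.17 and ADAM17 -0.12 in the probe set with its smallest p (limma adjusted p = 0.58, 0.60 and 0.76).

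**Figure D5:**
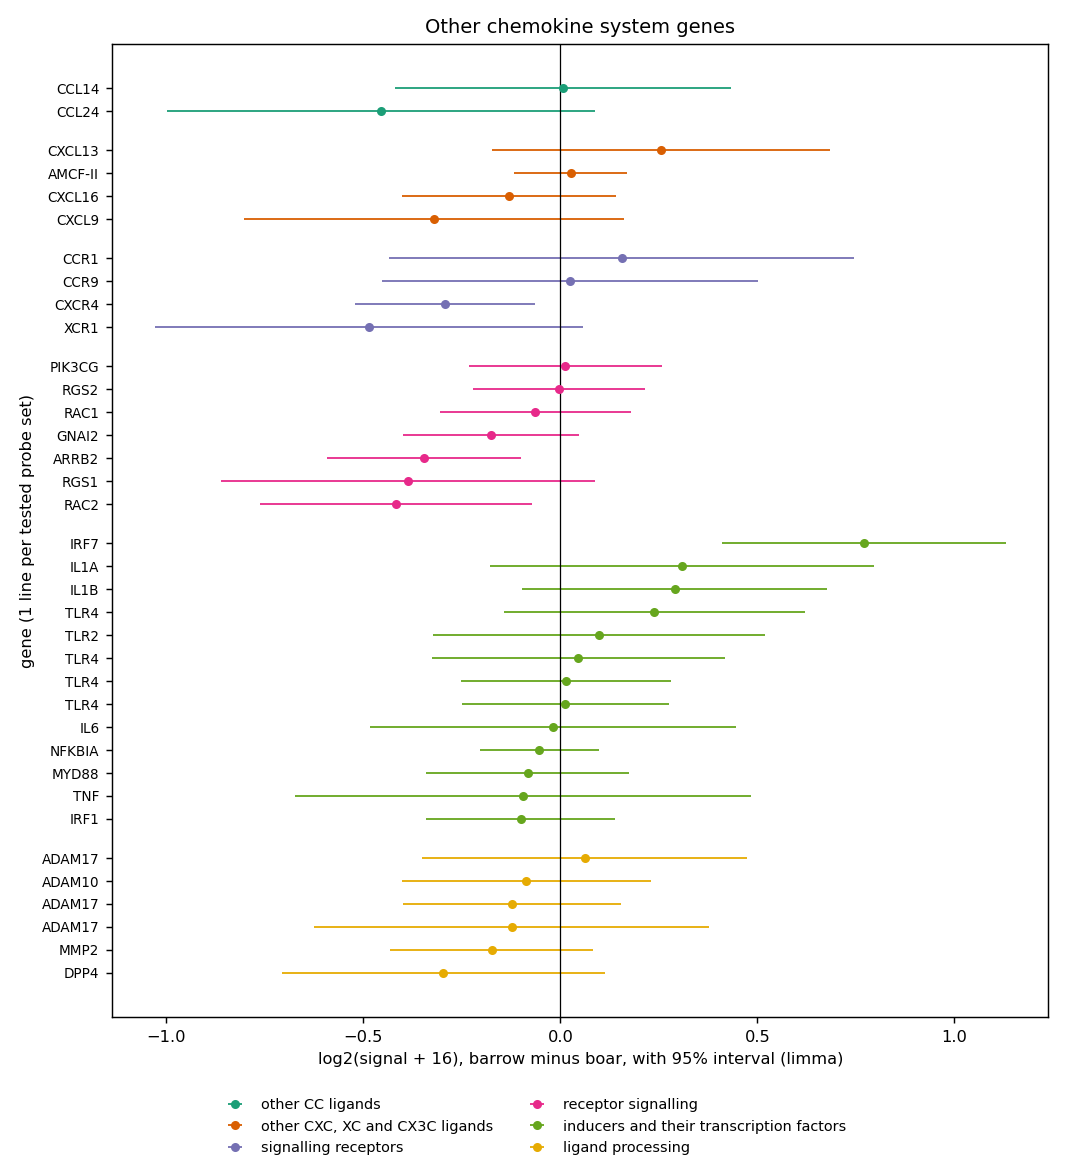
Difference of log2(signal + 16), barrow minus boar, with its 95% interval from limma, for the 36 tested probe sets of other chemokine system genes, coloured by list. IRF7 at 0.77 lies farthest right and XCR1 at -0.49 farthest left, and none of the 36 passed the threshold over the array.

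For the 3 chemokines with the clearest group pattern, the most similar annotated genes were taken by the root mean square difference of centred log2 profiles over the 6 arrays, among 7190 tested probe sets with 1 symbol. This measure rests largely on the group difference itself and is a description. Nearest to CCL4 were the fatty acid elongase ELOVL6 at 0.14, the small GTPase DIRAS3 at 0.15 and the carboxylesterase CES1 at 0.15. The differences of these probe sets were 0.81, 0.92 and 0.89. Another tested ELOVL6 probe set had 0.22 (limma adjusted p = 0.18). Nearest to CXCL2 were CD209 at 0.09, the organic cation transporter SLC22A3 at 0.10 and BCKDHA, of branched-chain amino acid breakdown, at 0.11, with differences of -0.86, -0.94 and -0.74. CCL19 had closer profiles than either, namely APOD, a lipocalin that binds lipids, at 0.04, the sterol hydroxylase CYP27A1 at 0.05 and the RNA-binding protein KHDRBS3 at 0.06. Their differences were -0.53, -0.56 and -0.62.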

How the data were processed

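RNA pools of barrow backfat (3) and boar backfat (3) were each measured on 1 array, and p-values refer to the spread between pools. Per the submitters' processing notes the deposited intensity values came from MAS5, with no version or settings named in these sources. The 2% trimmed mean was 500.09 to 500.1 on every array, as tested on the values. Detection calls were not used here, so no signal is shown to exceed background, and precision is limited by having 6 arrays. Symbols came from the platform annotation (10099 probe sets with 1, 198 with several, 13826 with none), and 9989 were found again in RefSeq (Sscrofa11.1) with 0 changed.

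The 124 control probe sets were left out. Values were taken as log2(signal + 16) at the authors' scaling, and the upper 60% of 23999 probe sets by mean were tested with limma 3.58.1 in R 4.3.3 (lmFit, eBayes with intensity trend, 2-sided, Benjamini-Hochberg over 14399, threshold 0.05, 95% intervals), checked on simulated data. The chemokines, lists and tests were chosen with earlier results of these data known. Named genes were every chemokine chosen, per chemokine system list those past the threshold and up to 3 with the smallest p, the receptors of those chemokines, and the 3 nearest profiles of CCL4, CXCL2 and CCL19. AMCF-II, CCL3L1, CCL8, CXCL8 and the single cell type markers were added after their values were seen.

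Residuals of same-numbered barrow and boar pools correlated at 0.12, 0.17 and 0.26, all over the minimum of 0.1. The numbers, shared in the titles, were therefore taken as pairs, for differences between pools of the same number and for the replicate block. Printed p-values and intervals come from the fit without that block unless it is named. What pools of the same number share was not tested. Alternatives were pseudocounts 64 and 1, no filter, the upper 40%, quantile normalization, no trend, the replicate block and each array left out.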

Additional observations from a re-analysis of the deposited data

How the results depend on the processing

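Each difference of the 10 chemokine probe sets moved by less than its within-group SD under the 13 alternatives, or 12 for CCL21, which the upper 40% left out, and directions held except for CXCL12 (a). The number of these 10 past the threshold was 3, 1 without the intensity trend and 1 to 4 when 1 array was left out, and with the replicate block it was 3. Of the other chemokine system probe sets 0 passed, and 0 to 1 when 1 array was left out. Over the array 167 probe sets passed (101 higher, 66 lower in barrows). The count was 96 without a filter (61 higher, 35 lower), 32 without the intensity trend (20 higher, 12 lower) and 338 with the replicate block (215 higher, 123 lower). When 1 array was left out it ran from 24 to 291 (16 to 160 higher, 8 to 131 lower), with 24 without boar pool 1, 31 without boar pool 3, 53 without barrow pool 1, 66 without barrow pool 3 and 291 without barrow pool 2. Fewer arrays or more probe sets tested are part of these alternatives, and otherwise the cause was not tested. The other named genes were followed over the alternatives, except GNLY, JCHAIN, PDPN, CDH5, VWF, the other ELOVL6 probe set and untested probe sets. Among those followed, directions turned only when 1 array was left out. MRC1 ran from -0.126 to 0.0455, CCL14 from -0.267 to 0.191 and CCR1 from -0.0311 to 0.475. CD83 ran from -0.0406 to 0.445, and ADAM17 from -0.296 to 0.0814 and from -0.0086 to 0.163 in separate probe sets. The replicate block changed no call among the probe sets followed. With 3 pools a group, a call that was missed does not show equal expression.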

Other observations

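CXCL9, CCL24 and CCL14, chemokines outside the 10 probe sets, shared the low values of boar pool 2. CXCL9 had 1119, 854 and 1072 in barrow pools 1 to 3, against 1419, 831 and 1706 in boar pools. CCL24 had 895, 794 and 945 in barrow pools, against 1436, 725 and 1684 in boar pools. CCL14 had 1286, 1139.7 and 1302 in barrow pools, against 1399, 839.8 and 1599.7 in boar pools. GNLY, a cytotoxic granule protein of NK and T cells, had 298, 294 and 286 in barrow pools, against 810.3, 177 and 510.2 in boar pools. In each of these genes boar pool 2 was the lowest of all 6 and the other boar pools were the highest, and the genes were picked after their values were seen. The other tested ligands outside the 10 did not share this. CXCL13 had 96.8 in boar pool 2 and 84.4 in boar pool 3, and AMCF-II had 4554 in boar pool 2 and 4455 in boar pool 1. CXCL16 had 310, 290 and 300 in boar pools, and its lowest value was 254 in barrow pool 3.

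EPCAM, a surface protein of epithelial cells from the epithelium and skin list, was dim and not tested. It had 76.2, 93.0 and 71.7 in barrow pools, against 40.01, 38.6 and 15.9 in boar pools. The groups did not overlap, as in 18.1% of all tested probe sets. KRT18, the other gene of that list with a probe set, was also not tested, and its groups overlapped. It had 55.2 ± 33.0 in barrows and 54.1 ± 32.8 in boars (SD, n = 3 each).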
